A study of Mus musculus with 18 samples.

Results

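The insulin-like growth factor (IGF) system was followed in cultured adult mouse neural stem cells (NSCs) through 8 genes chosen by name: the binding proteins Igfbp2, Igfbp3, Igfbp4, Igfbp5 and Igfbp7, the receptors Igf1r and Igf2r, and the ligand gene Igf2. All 8 were among the 50600 genes of each unfiltered expression table. After the authors' coverage filter, named CLEAR, 5 of the 8 were listed among 6616 genes at 10 pg of input RNA, 6 among 12537 at 100 pg and 7 among 13936 at 1 ng. Igf2 passed the filter at no input, Igfbp7 passed it only at 1 ng, and Igf1r did not pass it at 10 pg.

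The NSCs came from the dentate gyrus of C57Bl6J mice aged 6 to 9 weeks and were grown with epidermal and basic fibroblast growth factor to passages 6 to 15. They received 500 µM H2O2 for 24 h as a model of oxidative stress, or vehicle for the same time. By the study's methods the 3 cultures of each treatment were 1 male and 2 female replicates of NSC lines made from pooled mice, with 1 line for each sex, and the column headers name them F5, F8 and M9. Cultures F5 and F8 may thus come from the same female line. RNA from about 30000 cells per culture and treatment was diluted to 10 pg, 100 pg or 1 ng before library preparation, which gave 18 libraries in 6 groups of 3. These libraries came from only 6 RNA samples, so a culture contributes 1 RNA per treatment at every input and its dilutions are not independent replicates, and the p-values below measure only the spread between these 3 cultures, which may be technical in part. The growth medium held the B27 supplement, which contains insulin, in all groups.

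IGF1 and IGF2 are small secreted growth factors that signal through the tyrosine kinase receptor encoded by Igf1r. The binding proteins hold the ligands outside the cell, where they can either withhold them from the receptor or carry and release them, and Igf2r, also known as the cation-independent mannose 6-phosphate receptor, takes up IGF2 for breakdown and sorts lysosomal enzymes. In the hippocampus IGF signalling is known for its effects on the proliferation and neuronal differentiation of neural progenitors.

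The 2 members that passed the test at 1 ng, Igfbp3 and Igf1r, have different sequence just before their transcription starts, which is why these 2 stretches are shown. Both run from 250 bases before the RefSeq start up to the base before it, in build GRCm38.p6, as chr11:7213924-7214173 on the minus strand for Igfbp3 and chr7:67952007-67952256 on the plus strand for Igf1r. Capitals mark TATA matches (letters TATANA, either strand, where the 2 matches of Igfbp3 overlap) and GC boxes (letters GGGCGG, either strand).
Igfbp3: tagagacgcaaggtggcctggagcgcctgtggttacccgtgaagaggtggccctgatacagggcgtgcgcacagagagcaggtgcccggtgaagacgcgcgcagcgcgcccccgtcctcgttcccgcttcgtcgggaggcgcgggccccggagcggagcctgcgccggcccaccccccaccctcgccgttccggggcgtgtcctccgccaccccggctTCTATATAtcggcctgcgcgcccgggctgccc
Igf1r: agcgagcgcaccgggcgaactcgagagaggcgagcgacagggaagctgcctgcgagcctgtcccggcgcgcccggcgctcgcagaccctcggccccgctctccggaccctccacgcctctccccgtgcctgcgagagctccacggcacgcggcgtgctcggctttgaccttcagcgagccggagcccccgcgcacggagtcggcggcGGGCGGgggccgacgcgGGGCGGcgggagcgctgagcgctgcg
The Igfbp3 stretch held TATA matches that began 32 and 30 bases before the start and no GC box. The Igf1r stretch held GC boxes that began 43 and 26 bases before the start and no TATA match. GC content was 73.2% for Igfbp3 and 77.6% for Igf1r. Of 32851 RefSeq mouse windows from 250 bases before to 50 bases after a start, 35.7% held the GC box and 24.7% held the TATA letters. Neither match is thus uncommon somewhere in such a window. How often the letters fall at the positions seen here was not counted, and a match describes letters only. All 8 members had at least 1 window in that set, and neither pattern was particular to the called members. Igfbp4, which was not called, also held a TATA match and no GC box. Igf2r, Igfbp7 and a window of Igfbp2, none of them called, held GC boxes and no TATA match.

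Counted reads per library ran from 10850553 to 12362510 at 10 pg, 10891411 to 13051643 at 100 pg and 10032628 to 11946931 at 1 ng. Values are normalized counts, that is, reads divided by a size factor that the authors set for each library within an input. Since each input was normalized by itself, treatments were tested only within an input. At 1 ng all 8 markers of neural stem and progenitor cells averaged at least 10 normalized counts and summed to 74147 to 94753 in H2O2 libraries and 75463 to 79563 in vehicle libraries. The markers of other cell types were mostly not at 0. The 5 oligodendrocyte lineage markers, of which Sox10 was at 0 in every 1 ng library and Cnp was the highest, summed to 1596 to 1762 in H2O2 libraries and 1386 to 1499.9 in vehicle libraries. The 5 microglial markers, with C1qa at 0 throughout and Csf1r the highest, summed to 150 to 168 in H2O2 libraries and 115 to 130 in vehicle libraries. Cnp averaged 1523 over the 1 ng libraries, where the median of the 5 oligodendrocyte marker means was 2.73. Csf1r averaged 118, where the median of the 5 microglial marker means was 1.33. Both sums were higher in every H2O2 library, but each is mostly the value of 1 gene and does not show a change of a cell type. The part of these markers in the results was not tested. Sums for astrocytes (4600 to 5541 in H2O2 libraries, 4001 to 4835 in vehicle libraries) and neurons (6648 to 9602 in H2O2 libraries, 7025 to 8724 in vehicle libraries) overlapped. The proliferation gene Mki67 stood at 133 (F5), 748 (F8) and 1020 (M9) in H2O2 libraries, against 2362, 2718 and 2749 in vehicle libraries, and the p53 target Cdkn1a at 10990 to 12554 in H2O2 libraries, against 4938 to 7700 in vehicle libraries. The H2O2 library of F5 was thus the lowest for Mki67.

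At 1 ng, Igfbp3 and Igf1r rose with H2O2 and no member fell. Igfbp3 was 0.92 higher on the log2 scale and Igf1r 0.76 higher, while Igfbp2, Igfbp5, Igfbp7 and Igf2r had positive fold changes that did not pass and Igfbp4 had a value near 0. The 2 called members were 2 of 7 tested, where 5.57% of the 13692 genes tested at this input were called higher and 7.11% lower. Neither call survived the removal of every single library, as given below. In bulk RNA a change in the number of cells that express a gene cannot be told apart from a change in its RNA per cell.

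Igfbp3 encodes the main carrier of IGFs in the blood and is known as a p53 target in human cells. Its gene lies at chr11:7206086-7213923 (GRCm38) on the minus strand, 3539 bases from Igfbp1. At 1 ng it had 7049 normalized counts in H2O2 F5, 4799 in H2O2 F8 and 3757 in H2O2 M9, against 2826, 2608 and 2533 in the vehicle libraries of the same cultures. All 3 H2O2 libraries lay above all 3 vehicle libraries, as was the case for 18.1% of the genes tested. The group means were 5202 ± 1682 with H2O2 and 2656 ± 152 with vehicle (SD, n = 3 each), a log2 fold change of 0.92 (SE 0.20, 95% interval 0.45 to 1.40, adjusted p = 0.0327 by limma). With a term for culture (a block) in the limma fit its adjusted p was 0.0159, and 8.44% of all genes were called higher. The values that follow are without the block. Taken culture by culture, F5 differed by 1.32, F8 by 0.88 and M9 by 0.57 on the log2 scale. The spread therefore came mainly from the H2O2 libraries, with F5 the highest. Over the removal of single libraries the log2 fold change stayed between 0.68 and 1.13. The call held without H2O2 F5 or H2O2 M9 and was lost without H2O2 F8 (adjusted p = 0.0634), vehicle F5 (0.0899), vehicle F8 (0.102) or vehicle M9 (0.110). No gene of the whole table passed without any 1 of the vehicle libraries.

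Igf1r encodes the receptor through which IGF1 and IGF2 signal, and spans chr7:67952827-68233668 on the plus strand in the GENCODE annotation. That start lies downstream of the RefSeq start used for its sequence stretch above. It had 851 normalized counts in H2O2 F5, 798 in H2O2 F8 and 618 in H2O2 M9, against 460, 531 and 351 in the vehicle libraries of F5, F8 and M9. The groups did not overlap, and M9 was the lowest culture in both. The means were 756 ± 122 with H2O2 and 447 ± 90.6 with vehicle (SD, n = 3 each), a log2 fold change of 0.76 (SE 0.18, 95% interval 0.34 to 1.19, adjusted p = 0.0395). The cultures differed little among themselves in this respect, with log2 differences of 0.89, 0.59 and 0.81. With the culture as a block the limma fit gave Igf1r an adjusted p of 0.0152, where 8.44% of all genes were called higher. Without the block, the call held only when H2O2 M9 was left out (adjusted p = 0.0364). It was lost without H2O2 F5 (0.0669), H2O2 F8 (0.0905), vehicle F5 (0.0978), vehicle F8 (0.0819) or vehicle M9 (0.116), while the log2 fold change stayed between 0.60 and 0.90. Since no gene at all passed without any 1 of the vehicle libraries, the losses on leaving these out are not particular to Igf1r.

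Igf2r, the clearance and sorting receptor, lies at chr17:12682406-12769664 on the minus strand. At 1 ng it had 961, 1859 and 1216 normalized counts in H2O2 F5, F8 and M9, against 981, 937 and 627 in vehicle F5, F8 and M9. The H2O2 library of F8 stood highest, H2O2 F5 lay within the vehicle range, and the log2 fold change of 0.64 (SE 0.26, 95% interval 0.04 to 1.24) had an adjusted p of 0.138. The noncoding Airn runs antisense to Igf2r over 28354 bases, and the reads were counted without strand, so reads over shared exonic bases cannot be told apart. Airn itself had 6.32 to 45.8 normalized counts at 1 ng, few beside those of Igf2r, and was highest in H2O2 F8.

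Igfbp2 was the most abundant member per kilobase and is a secreted binding protein known from neural progenitors and glia. Its gene (chr1:72824503-72852474, plus strand) lies 5457 bases from Igfbp5. It had 54202 normalized counts in H2O2 F5, 30313 in H2O2 F8 and 26440 in H2O2 M9, against 23696, 31104 and 20346 in vehicle F5, F8 and M9. Only F5 was far apart between treatments, at 1.19 on the log2 scale, while F8 differed by −0.04 and M9 by 0.38. The log2 fold change over the 3 cultures was 0.51 (SE 0.28, 95% interval −0.13 to 1.15, adjusted p = 0.247), and 0.20 without H2O2 F5.

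Igfbp5 (chr1:72857932-72874884, minus strand) encodes a binding protein that also attaches to extracellular matrix. At 1 ng it had 370, 1061 and 287 normalized counts in H2O2 F5, F8 and M9, against 369, 214 and 194 in vehicle F5, F8 and M9. H2O2 F8 stood far above the rest and F5 did not differ between treatments (0.01 on the log2 scale). The log2 fold change of 0.96 had a wide interval (SE 0.47, 95% interval −0.14 to 2.05, adjusted p = 0.210) and was 0.39 without H2O2 F8. DESeq2 on the recovered reads gave 1.15 for Igfbp5, with an adjusted p of 0.0479, and called 9.67% of all genes higher.

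Igfbp7 (chr5:77349240-77408041, minus strand) encodes a relative of the family that binds IGFs weakly. It was a low gene, with 34, 81 and 14 reads in H2O2 F5, F8 and M9, against 29, 17 and 19 reads in vehicle F5, F8 and M9 at 1 ng. The 1 library that stood apart was again H2O2 F8. The log2 fold change of Igfbp7 was 0.75 (SE 0.60, adjusted p = 0.435), and −0.01 without both libraries of F8. The Igfbp7 gene shares 85 bases with the oppositely oriented Polr2b.

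Igfbp4 (chr11:99041244-99054392, plus strand) encodes a binding protein best known for withholding IGFs from their receptor. It did not share the pattern of the others, with 8458, 7366 and 5439 normalized counts in H2O2 F5, F8 and M9, against 8466, 9606 and 5465 in vehicle F5, F8 and M9. F5 and M9 had almost the same level under both treatments and F8 was lower with H2O2 by 0.38 on the log2 scale. The log2 fold change of Igfbp4 was −0.13 (SE 0.23, 95% interval −0.67 to 0.41, adjusted p = 0.737), and it turned to 0.05 without H2O2 M9 and 0.04 without vehicle F8.

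Igf2 (chr7:142650766-142666816, minus strand), the ligand gene, was scarcely read. At 1 ng it had 1, 8 and 3 reads in H2O2 F5, F8 and M9, against 2, 3 and 0 reads in vehicle F5, F8 and M9. At 100 pg it had 10 reads over the 3 H2O2 libraries, 9 of them in M9, and 0 over the 3 vehicle libraries, and at 10 pg it was at 0 in all 6 libraries. These counts cannot show a difference at this depth. The gene overlaps the antisense Igf2os, and its imprinted neighbour H19 was at 0 at every input.

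**Figure D1:**
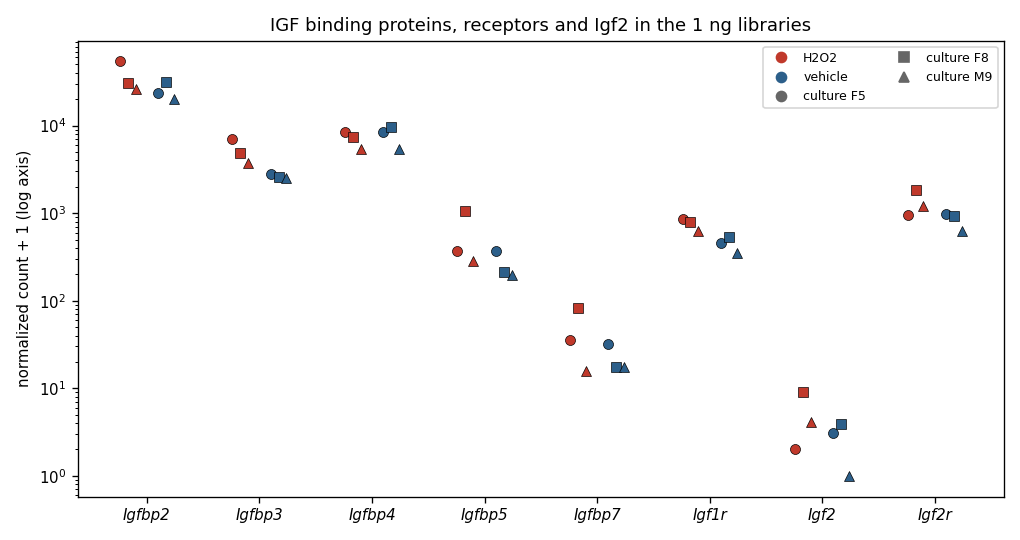
Normalized counts of the 8 genes in the 6 libraries of 1 ng, plotted as the count plus 1 on a log axis, with H2O2 in red to the left of vehicle in blue and 1 symbol per culture. Igfbp3 and Igf1r are the genes whose 3 H2O2 libraries lie above all 3 vehicle libraries, H2O2 F5 is highest for Igfbp2 and Igfbp3, and H2O2 F8 is highest for Igfbp5, Igfbp7, Igf2r and Igf2.

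The libraries that carried the high values were not the same for all members. H2O2 F5, the library lowest in Mki67, was the highest of the 6 for Igfbp2, Igfbp3 and Igf1r, and H2O2 F8 was the highest for Igfbp5, Igfbp7 and Igf2r at 1 ng. Igfbp5 and Igfbp7 are also expressed in pericytes and fibroblasts. The 5 markers of these cells summed to 10.2 (F8) to 49.9 (F5) normalized counts in H2O2 libraries. In vehicle libraries they summed to 8.49 to 18.4, and 1 of the 5 genes averaged at least 10 over the 1 ng libraries. Choroid plexus markers summed to 4.09 (F8) to 7.98 (F5) normalized counts in H2O2 libraries and 6.14 to 10.6 in vehicle libraries. The part of other cells, or of the proliferation state of a culture, in these values was not tested.

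Per kilobase of exon, the 1 ng levels spanned a wide range. Igfbp2 led with a mean of 20025 ± 8141 normalized counts per kb in H2O2 libraries and 13562 ± 2981 in vehicle libraries (SD, n = 3 each). Next came Igfbp3 with 1662 ± 538 with H2O2 and 848 ± 48.6 with vehicle, and Igfbp4 with 1605 ± 346 with H2O2 and 1777 ± 484 with vehicle. In H2O2 libraries these neighbours in the order overlapped, whereas in vehicle libraries every Igfbp4 value per kb (1238 to 2175) was above every Igfbp3 value (809 to 903). Igf2r (145 ± 49.7 with H2O2, 91.1 ± 20.7 with vehicle) and Igfbp5 (95.3 ± 70.7 with H2O2, 43.1 ± 15.9 with vehicle) followed, and their H2O2 ranges per kb overlapped. Igf1r (45.0 ± 7.26 with H2O2, 26.6 ± 5.40 with vehicle) and Igfbp7 (36.2 ± 28.8 with H2O2, 17.6 ± 6.87 with vehicle) also overlapped with H2O2, as did Igfbp5 and Igf1r. Igf2 was lowest, at 0.72 ± 0.64 with H2O2 and 0.29 ± 0.26 with vehicle.

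At 100 pg no member passed the test without a term for culture, where 0.666% of the 12171 genes tested were called higher and 0.846% lower by limma. Of the 6 members tested, 3 had an unadjusted limma p under 0.05, as had 2558 of the 12171 genes. No member was called by edgeR, which called 0.649% of all genes higher. Igfbp3 was the exception under other fits. With the culture as a block its adjusted p was 0.0235, a fit that called 1.77% of all genes higher, and DESeq2 on recovered reads gave it 0.0067 and also called Igfbp5 (0.0374), with 4.31% of all genes called higher. The cultures are shared between the treatments, so the blocked value belongs beside the unblocked one. The level of Igfbp3 at 100 pg was 6.85 to 11.9 times its 1 ng level across the RNA samples, as described below. Whether this bears on its calls at 100 pg was not tested.

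Igfbp3 had 83387, 45484 and 35551 normalized counts in H2O2 F5, F8 and M9 at 100 pg, against 29186, 28656 and 17525 in vehicle F5, F8 and M9. It was the 1 member of the 6 tested whose groups did not overlap, as for 12.6% of all genes at this input, and its order of libraries was F5, F8, M9 in both groups. The log2 fold change of Igfbp3 was 1.07 (SE 0.31, 95% interval 0.38 to 1.76, adjusted p = 0.0997), with 1.51, 0.67 and 1.02 within F5, F8 and M9. Igfbp5 had 394, 814 and 249 normalized counts in H2O2 F5, F8 and M9, against 294, 120 and 111 in vehicle F5, F8 and M9 (log2 fold change 1.45, SE 0.51, adjusted p = 0.155). Igf2r had 928, 1931 and 998 in H2O2 F5, F8 and M9, against 946, 507 and 642 in vehicle F5, F8 and M9 (0.85, SE 0.32, adjusted p = 0.176). For both genes H2O2 F8 was again the highest library, while Airn was at 11.1 normalized counts in H2O2 F8 here, the lowest of the 6.

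Igf1r had 785, 754 and 411 normalized counts in H2O2 F5, F8 and M9 at 100 pg, against 419, 460 and 383 in vehicle F5, F8 and M9. H2O2 M9 lay within the vehicle range, and the log2 fold change of 0.57 (SE 0.27, 95% interval −0.05 to 1.19) had an adjusted p of 0.275. Igfbp2 had a log2 fold change of 0.51 (SE 0.25, adjusted p = 0.300) and Igfbp4 one of −0.16 (SE 0.24, adjusted p = 0.763). Igfbp7, which the coverage filter left out here, had 16, 147 and 35 reads in H2O2 F5, F8 and M9, against 8, 31 and 0 in vehicle F5, F8 and M9, and its fit in the unfiltered table spanned −0.11 to 5.79 on the log2 scale (95% interval).

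At 10 pg, limma called 0 of the 6356 genes tested (0%), as did edgeR and the fit with the culture block, and 646 had an unadjusted p under 0.05. DESeq2 called 96 genes (1.51%), with no member among them, and of the 5 members tested Igfbp2 and Igfbp5 had an unadjusted limma p under 0.05. Those 2 were also the members whose H2O2 libraries all lay above the vehicle libraries, as for 7.91% of all genes at this input. Igfbp5 had 340, 471 and 408 normalized counts in H2O2 F5, F8 and M9, against 169, 117 and 94.2 in vehicle F5, F8 and M9. The 3 H2O2 libraries were close together, unlike at the larger inputs, and the log2 fold change was 1.70 (SE 0.61, 95% interval 0.31 to 3.09, adjusted p = 0.393). Igfbp2 had 50726, 25969 and 23430 in H2O2 F5, F8 and M9, against 17684, 20454 and 19549 in vehicle F5, F8 and M9 (0.71, SE 0.26, adjusted p = 0.404). H2O2 F5 was again the high library for Igfbp2.

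Igfbp3 had 4249, 3066 and 1984 normalized counts in H2O2 F5, F8 and M9 at 10 pg, against 2095, 2109 and 1090 in vehicle F5, F8 and M9. Within each culture the H2O2 library was higher (1.02, 0.54 and 0.86 in F5, F8 and M9 on the log2 scale), but H2O2 M9 lay below 2 vehicle libraries, and the log2 fold change of 0.81 (SE 0.39) had an adjusted p of 0.520. Igfbp4 (0.32, SE 0.27) and Igf2r (0.42, SE 0.64) had wider or smaller values relative to their errors. Igf2r ranged from 316 normalized counts in vehicle M9 to 2049 in vehicle F5, a wider spread than the 1014 to 1371 of the H2O2 libraries. Igf1r, left out by the coverage filter at 10 pg, had 46, 635 and 461 reads in H2O2 F5, F8 and M9, against 309, 323 and 136 in vehicle F5, F8 and M9. Its H2O2 F5 library, the highest at 1 ng, was thus the lowest at 10 pg.

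**Figure D2:**
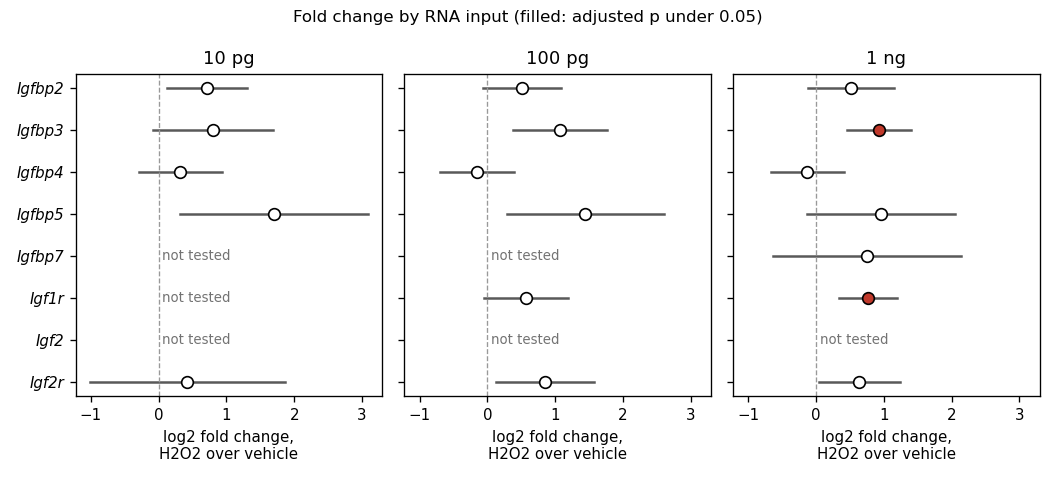
Log2 fold changes of H2O2 over vehicle for each member at 10 pg, 100 pg and 1 ng, with 95% intervals from limma. Filled points passed an adjusted p of 0.05, which holds for Igfbp3 and Igf1r at 1 ng, and members that the coverage filter left out are marked as not tested.

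Described as a list, the tested members had a median log2 fold change of 0.71 at 10 pg, 0.71 at 100 pg and 0.75 at 1 ng, where the medians over all genes tested were 0.02, 0.01 and 0.02. The fold change was above 0 for 5 of 5, 5 of 6 and 6 of 7 tested members at these inputs. The 3 comparisons share their RNA samples, and a coverage filter chose which members were tested. The list itself was drawn up with earlier results of these data known. These medians and counts therefore describe the listed genes and support no call.

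The level of Igfbp3 differed between 100 pg and 1 ng far more than that of Igfbp2. Inputs were normalized separately, so what follows is a description with no test, and it was singled out after the values were seen. In the unfiltered tables Igfbp3 at 100 pg was 11.9, 9.43 and 9.47 times its 1 ng level in H2O2 F5, F8 and M9, and 10.4, 11.01 and 6.85 times in vehicle F5, F8 and M9. Its 10 pg level was 0.416 to 0.797 times the 1 ng level. All 6 RNA samples, from both treatments, thus had their high Igfbp3 value at the middle dilution. Igfbp2 at 100 pg was 1.196 to 1.215 times its 1 ng level in the same 6 RNA samples.

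**Figure D3:**
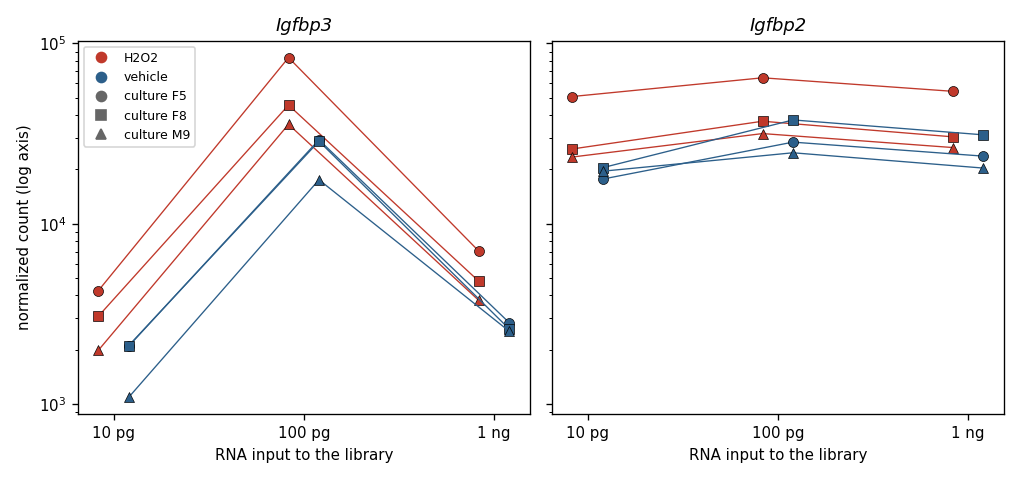
Normalized counts of Igfbp3 (left) and Igfbp2 (right) on a log axis at 10 pg, 100 pg and 1 ng, with H2O2 in red, vehicle in blue, 1 symbol per culture and a line joining the dilutions of 1 RNA sample. Igfbp3 peaks at 100 pg in all 6 RNA samples, at 17525 to 83387, while Igfbp2, also highest there, is only 1.196 to 1.215 times its 1 ng level, and the H2O2 library of a culture stays above its vehicle library for Igfbp3 at each input.

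A ratio of these genes within a library does not depend on the size factors. Igfbp3 over Igfbp2 was 0.0838 to 0.118 in H2O2 libraries and 0.0558 to 0.118 in vehicle libraries at 10 pg. At 100 pg the ratio was 1.12 to 1.29 in H2O2 libraries and 0.709 to 1.03 in vehicle libraries, and at 1 ng it was 0.130 to 0.158 in H2O2 libraries and 0.0839 to 0.124 in vehicle libraries. The 100 pg libraries thus stood apart from both other inputs in the ratio too. Igfbp3 ranked 2, 6 and 10 by reads among all genes in H2O2 F5, F8 and M9 at 100 pg and 15, 18 and 31 in vehicle F5, F8 and M9. At 1 ng its rank was 175 to 432 in H2O2 libraries and 665 to 782 in vehicle libraries.

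Few genes behaved in this way. Among 5011 genes with a mean of at least 500 normalized counts at 1 ng, the log2 ratio of the 100 pg mean over the 1 ng mean had a median of 0.12, with 5% below −0.29 and 5% above 0.34. The ratio was above 2 on the log2 scale for 13 genes and below −2 for none, and Igfbp3 had the highest of all at 3.35. Rac1, a small GTPase of the cytoskeleton, followed at 3.28, Ppp2ca, a catalytic subunit of protein phosphatase 2A, at 3.25, and Lamp1, a lysosomal membrane protein, at 2.93. At 10 pg no gene of the 5011 was above 2 over its 1 ng mean. The log2 ratios of 100 pg over 1 ng of the other members in this range of levels were 0.27 for Igfbp2, 0.22 for Igfbp4, −0.14 for Igf2r and −0.17 for Igf1r. The cause of the Igfbp3 value at 100 pg was not tested.

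**Figure D4:**
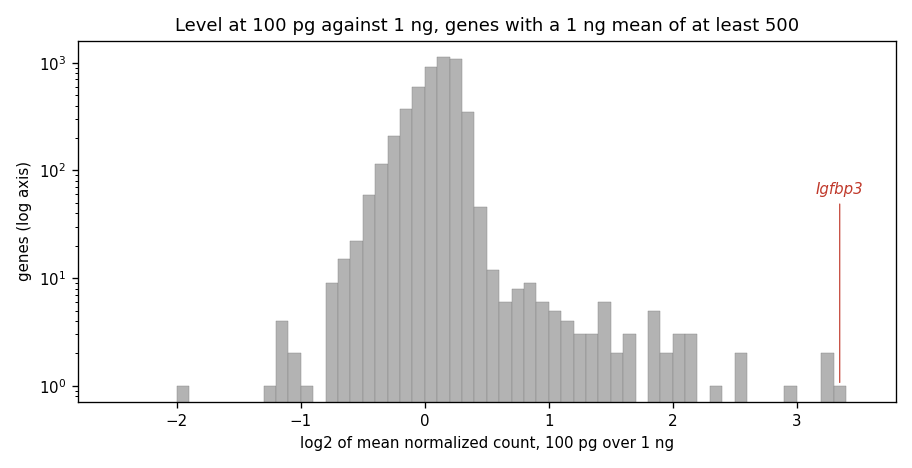
Histogram of the log2 ratio of mean normalized count at 100 pg over 1 ng for 5011 genes with a 1 ng mean of at least 500, with the number of genes on a log axis. Most genes lie between −0.29 and 0.34, and Igfbp3 is at the far right at 3.35.

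The make-up of the binding protein transcripts followed from this. Of the summed level per kb of the 5 binding proteins, Igfbp2 made up 82.5% to 87.0% in H2O2 libraries and 77.7% to 86.7% in vehicle libraries at 10 pg, and 82.6% to 87.3% in H2O2 libraries and 81.5% to 84.6% in vehicle libraries at 1 ng. At 100 pg its share was 54.6% to 57.2% in H2O2 libraries and 57.0% to 65.5% in vehicle libraries. Igfbp3 took the difference, with 38.0% to 41.7% in H2O2 libraries and 27.4% to 34.6% in vehicle libraries at 100 pg, against 6.70% to 7.72% in H2O2 libraries and 4.19% to 6.17% in vehicle libraries at 1 ng. Igfbp4 had a lower share in H2O2 libraries than in vehicle libraries at 1 ng, 5.70% to 8.40% with H2O2 against 9.44% to 12.2% with vehicle, while its own log2 fold change was −0.13. Shares of a sum are not independent of each other, and no test was made on them.

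**Figure D5:**
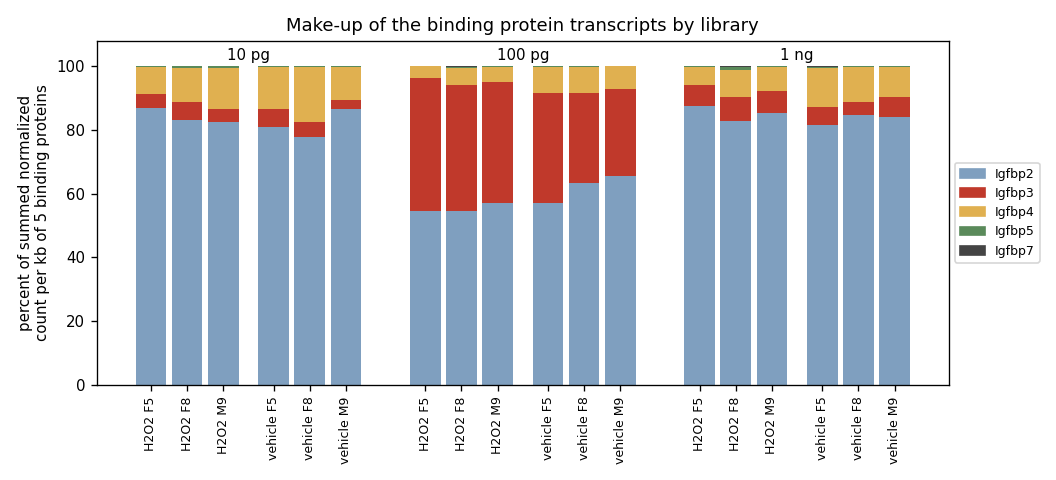
Share of each of 5 binding proteins in their summed normalized count per kb, 1 bar per library, with H2O2 to the left of vehicle within each input. Igfbp2 (blue) is the main part of each bar, and Igfbp3 (red) takes 27.4% to 41.7% at 100 pg and 4.19% to 7.72% at 1 ng.

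Of the 42 other genes of the pathway, which span ligands, proteases, signalling, sorting and RNA-binding genes, 17 were tested at 10 pg, 30 at 100 pg and 32 at 1 ng. None passed limma or edgeR in either direction. An unadjusted limma p under 0.05 was found for 1, 4 and 4 of them at 10 pg, 100 pg and 1 ng. Over all genes tested it was found for 646 of 6356, 2558 of 12171 and 4319 of 13692. DESeq2 called 0, 1 and 2 of the pathway genes, against 96, 1134 and 2787 of all genes. The median log2 fold change of the tested pathway genes was 0.15 at 10 pg, 0.10 at 100 pg and 0.15 at 1 ng. Some of the 42 were hardly read, and these are named after their values were seen. The ligand gene Igf1 had 3 to 7 reads in H2O2 libraries and 3 to 9 in vehicle libraries at 1 ng, and Igfbp6 had 2 to 6 in both. Igfbp1 was at 0 in all 18 libraries. The calls that appeared with the culture as a block were all among receptors and signalling genes.

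With that block, Irs2, an adaptor that carries the signal from the IGF1 and insulin receptors to PI3-kinase, was called higher at 1 ng with 649 ± 117 normalized counts in H2O2 libraries and 443 ± 78.2 in vehicle libraries (log2 fold change 0.55, blocked adjusted p = 0.0225, unblocked 0.0815). Shc1, the adaptor towards the Ras pathway, averaged 1637 ± 611 in H2O2 libraries and 1097 ± 295 in vehicle libraries at 1 ng (0.54, blocked adjusted p = 0.0323, unblocked 0.290), and was called with the block at 100 pg as well (0.77, blocked adjusted p = 0.0344, unblocked 0.168). Grb10, an adaptor that binds the IGF1 and insulin receptors and dampens their signal, averaged 31.9 ± 20.4 in H2O2 libraries and 85.0 ± 22.4 in vehicle libraries (−1.53, blocked adjusted p = 0.0220, unblocked 0.0568). The block called 8.44% of all genes higher and 9.87% lower at 1 ng. DESeq2 called Irs2 (adjusted p = 0.0400) and Grb10 (0.0170) at 1 ng, and Irs2 at 100 pg (0.00901). By limma the log2 fold change of Irs2 was 0.85 at 100 pg (blocked adjusted p = 0.0541, unblocked 0.0772). At 10 pg it was −0.23 (unblocked adjusted p = 0.923).

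The genes whose pattern was most like that of Igfbp3, the member with the smallest p at 1 ng, were sought among 9215 genes by the mean of 2 Pearson correlations of log2 values, over the 6 libraries of 1 ng and the 6 of 100 pg. Cds2 came first (0.99), then Map1lc3b (0.99), Csdc2 (0.99), Ccnd2 (0.98) and Pcp4l1 (0.98). Cds2, for example, had 3339, 2193 and 1861 normalized counts in H2O2 F5, F8 and M9 at 1 ng, against 1412, 1277 and 1192 in vehicle F5, F8 and M9. These points share the treatment and their RNA between the inputs, so the values order the genes and carry no test.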

How the data were processed

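SMART-Seq HT and Nextera XT libraries were sequenced as pairs. Per the study's methods and the submitters' notes, the authors aligned reads with HISAT2 2.0.6 to the mouse genome GRCm38 (the notes list GRCh38, the human build), counted them per GENCODE gene with featureCounts without strand, and filtered genes by coverage with CLEAR. The deposited signal values are counts that the authors divided by a DESeq2 size factor, separately for each input and table. Every value was a whole multiple of the worth of 1 read (100.0% within 1e-06), which gave back the reads.

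Genes above 0 in any library of the CLEAR table were tested with limma 3.58.1 (R 4.3.3, mean trend) on log2(normalized count + 1), treatment only, 2-sided, with Benjamini-Hochberg adjustment over all genes (threshold 0.05). On this scale the change of low genes is understated. Alternatives were edgeR 4.0.16, DESeq2 1.42.0, a culture block, other pseudocounts and filters, TMM factors and left-out libraries or cultures. Tested on simulated data, the limma fit gave unbiased fold changes and few false calls but missed most of the smaller changes, which edgeR, DESeq2 and limma without low genes called more often. The simulation gave all genes and inputs the same spread between replicates, with no culture effect. Its rates of false and missed calls therefore need not hold for the real libraries. Means are given with SDs. Per kb values use exon lengths of GENCODE M21.

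Treatments share the cultures named in the column headers, so libraries of 1 culture are pairs. Deviations from group means correlated within cultures at 0.16 (F5), 0.15 (F8) and 0.45 (M9) at 1 ng, and at −0.03 to 0.21 at the other inputs. Between F5 and F8 they correlated at 0.13 (H2O2 F5 with vehicle F8) and 0.04 (H2O2 F8 with vehicle F5) at 1 ng. Between M9 and either of these cultures the values were −0.29 to −0.16. Deviations sum to 0 within a group, so negative values follow from the 0.45 of M9 and add no separate evidence. At 1 ng only M9 had a within-culture value well above the values between F5 and F8. Replicates differed by 7.30 to 209.7 in chi-square per gene, far above sampling noise, so none was counted as a copy of another library's reads. Library preparation also adds noise, so this value cannot tell separate cultures from repeated preparations of 1 RNA. All 8 members are named, with other pathway genes that pass at any input in any fit, Mki67, Cdkn1a and the 5 genes most like the member with the smallest p. The members and lists were chosen with earlier results of these data known. Promoters came from RefSeq (GRCm38.p6).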

Additional observations from a re-analysis of the deposited data

How the results depend on the processing

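The count of members called at 1 ng, 2 in the reported fit, ran from 0 to 2 as single libraries were left out. It was 1 without both libraries of culture F5, 0 without those of F8 and 0 without those of M9, with 830, 0 and 0 genes called in all. It was 2 under both other pseudocounts, both filters and the unfiltered tables, TMM factors, edgeR and the replicate block, and 3 by DESeq2. At 100 pg the count of 0 became 1 with the replicate block and 2 with DESeq2, and was 0 under the other settings, leaving out libraries included. At 10 pg it was 0 in every setting run. Over all genes DESeq2 called 2787, against 1735 by limma, at 1 ng and 1134, against 184, at 100 pg, and the replicate block called 495 at 100 pg. At 100 pg, 14 passed in the unfiltered table with a mean of at least 1 and 0 with no filter. The replicate block changed no member's call other than that of Igfbp3 at 100 pg (adjusted p = 0.0235, log2 fold change 1.07).

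Directions that turned were those of small or noisy values. Igfbp4 ranged from −0.371 to 0.0486 over single left-out libraries at 1 ng and from −0.401 to 0.0424 at 100 pg, and was 0.00738 at 100 pg without both libraries of F8. Igfbp7 at 1 ng was −0.0104 without both libraries of F8. Igf2r at 10 pg ranged from −0.33 to 1.02 over single left-out libraries and was −0.43 without both of M9. The cause was not tested.

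With 3 cultures a group, a p that missed the threshold does not show that a gene did not differ. Reads are counts of amplified cDNA without molecular identifiers, so low genes such as Igf2 and Igfbp7 are limited by both counting and amplification.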
